A study of Mus musculus with 32 samples.

Results

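Immediate early genes are the genes that a cell transcribes first after a stimulus. The 10 examined here were Fos, Fosb, Jun, Junb, Egr1, Nr4a1, Ier2, Klf4, Btg2 and Myc, taken by gene name from the deposited expression tables, which list 53801 gene IDs. Of the 12817 genes with enough signal for a test, 9 belong to this set. Fosb did not pass, because no library reached 1 TPM (a transcript level scaled for length and for the total of the library). Egr1 passed only through 7 Col6a2-/- libraries and no wild-type one, so its difference between genotypes is tied to how it entered the test.

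The RNA came from quadriceps muscle of 32 mice, 1 library per mouse. Mice were wild type (WT) or Col6a2-/-, homozygous for the whole-body knockout allele Col6a2tm1(KOMP)Vlcg of a gene for a chain of collagen VI, a protein of the muscle matrix. Both genotypes came from heterozygous parents on a C57BL/6N-derived line crossed back to C57BL/6J for 5 generations, and were examined at 5 or 25 weeks of age, in females and males, with 4 mice in each of the 8 groups. Muscle was snap frozen and lysed as cryosections, so the libraries mix all cell types of the tissue. In such bulk samples, more cells of a type and more RNA per cell cannot be told apart.

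Immediate early genes need no new protein for their induction. Factors already in the cell, such as serum response factor with its Elk partners and CREB, act on their promoters after calcium, kinase or stress signals, and the messages are then degraded quickly. Fos, Fosb, Jun and Junb encode subunits of the dimeric factor AP-1. Egr1 and Klf4 encode zinc finger factors, Nr4a1 an orphan nuclear receptor, Myc a growth regulator, Btg2 an antiproliferative cofactor of mRNA decay, and Ier2 a small nuclear protein. In skeletal muscle they are known to respond to contraction, injury and the handling of tissue, in fibres as well as in the cells between them.

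The genotype labels were checked on Col6a2 itself, which lay between 6.604 and 51.2 TPM in WT libraries and at or below 0.171 TPM in Col6a2-/- libraries. The fast fibre and sarcomere markers (Acta1, Ckm, Myh4 and others) summed to between 31467 and 55928 TPM, so the tissue matched its label. Mitochondrial transcripts took 31.9% to 46.9% of TPM and the Rn7s genes 20.8% to 30.5%. The ratio of coverage to FPKM, a relative measure of depth, ran from 6.8 to 13.7. A pair of libraries stood apart in a way that touches the results. The 5-week WT male library 4 had the highest level of its group for 8 of the 10 genes, and the 5-week Col6a2-/- female library 2 had the most genes at 1 TPM or more, 12877 against a lowest count of 10399. Where the call of a member turns on leaving out either of them, this is stated.

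The sequences just upstream of the start sites are shown because the transcripts of Fos, Jun, Btg2, Klf4 and Junb varied together between mice, every pair of the 5 passing the test given with the correlations. Whether these sequences bear on that covariation was not tested. Each run is the 250 bases before the RefSeq start on GRCm38.p6, written 5′ to 3′ on the gene's strand. Capitals mark TGACG in either orientation, the core letters of a CREB and ATF site, and in addition TATAAA in Fos and a MEF2 site in Jun.
Fos: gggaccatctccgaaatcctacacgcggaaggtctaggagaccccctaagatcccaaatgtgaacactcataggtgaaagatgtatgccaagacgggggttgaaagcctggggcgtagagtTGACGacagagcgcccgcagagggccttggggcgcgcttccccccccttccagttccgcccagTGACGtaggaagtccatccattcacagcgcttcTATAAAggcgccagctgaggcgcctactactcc
Btg2: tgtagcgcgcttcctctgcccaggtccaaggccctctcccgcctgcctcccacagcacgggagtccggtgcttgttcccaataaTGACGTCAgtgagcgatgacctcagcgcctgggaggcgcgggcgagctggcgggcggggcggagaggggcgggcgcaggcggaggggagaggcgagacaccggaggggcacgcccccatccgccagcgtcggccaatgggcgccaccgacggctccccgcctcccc
Junb: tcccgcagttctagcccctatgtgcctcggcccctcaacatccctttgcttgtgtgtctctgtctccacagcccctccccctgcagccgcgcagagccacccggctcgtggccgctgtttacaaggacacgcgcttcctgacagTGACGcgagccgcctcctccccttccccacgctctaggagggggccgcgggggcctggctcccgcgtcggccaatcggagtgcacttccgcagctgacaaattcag
Klf4: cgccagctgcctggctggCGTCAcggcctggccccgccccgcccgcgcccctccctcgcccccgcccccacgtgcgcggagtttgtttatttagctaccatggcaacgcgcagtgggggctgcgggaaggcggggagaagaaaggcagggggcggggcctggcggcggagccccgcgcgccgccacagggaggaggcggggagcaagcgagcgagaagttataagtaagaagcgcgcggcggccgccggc
Jun: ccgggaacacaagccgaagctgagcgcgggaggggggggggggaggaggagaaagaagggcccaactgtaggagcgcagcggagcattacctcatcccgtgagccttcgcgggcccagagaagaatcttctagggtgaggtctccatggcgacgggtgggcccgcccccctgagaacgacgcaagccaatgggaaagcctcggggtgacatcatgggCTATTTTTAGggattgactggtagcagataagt
These windows lie at chr12:85473640-85473889 (plus strand, Fos), chr1:134079156-134079405 (minus strand, Btg2), chr8:84978749-84978998 (minus strand, Junb), chr4:55532476-55532725 (minus strand, Klf4) and chr4:95052223-95052472 (minus strand, Jun). The RefSeq table held 7 of the 10 genes, the other two being Fosb and Nr4a1. TGACG, searched on both strands, was present in 6 of the 7 windows and in 17.8% of 32851 promoter windows of the same length. Nr4a1 held it 4 times, and Fos and Btg2 2 times each, in Btg2 as the overlapping pair of the palindrome TGACGTCA. Jun had none, and was the window with a MEF2 site, a motif found in 0.508% of all windows. TATAAA, searched on the gene's strand, was in the Fos window alone of the 7, against 7.59% of all windows. GCGNGGGCG, the letters of an EGR site on both strands, was in 4 of the 7 windows, those of Btg2, Klf4, Fosb and Nr4a1, against 4.70% of all. Those 4 windows had the most G and C, from 68.8% in Fosb to 74.4% in Nr4a1. Junb, Jun and Fos had 66.4%, 61.2% and 58.4%. The 32851 windows were not matched for G and C content, for this or any other motif. The CArG box of serum response factor was in none of the 7 windows and in 1.47% of all, and TGANTCA, the AP-1 site, was in none and in 6.75% of all. These matches describe letters only, within 250 bases, and sites outside the windows were not searched. Egr1, Ier2 and Myc had no window.

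Junb was the gene of the set that was higher in Col6a2-/- muscle at both ages, at about double the WT level over both sexes. At 5 weeks its mean was 5.85 against 1.62 TPM in females and 3.70 against 3.06 TPM in males. At 5 weeks Ier2 was also higher, a call made in 8 of 11 other settings, and at 25 weeks Klf4. The Klf4 difference was close to the threshold (limma adjusted p 0.0485), and 21 of 32 fits that left out 1 library lost it. Egr1 passed the threshold at 5 weeks as well, but it entered the test only through Col6a2-/- libraries, and with no filter on low TPM its adjusted p was 0.0771. Fos had a 3.37 times higher mean at 25 weeks but varied so much between mice that it missed the threshold. No member was lower in Col6a2-/- muscle by the test at either age. In a linear model of all tested genes (limma on log2(TPM + 1), Benjamini-Hochberg adjusted p under 0.05 over 12817 genes, here termed called), 3 of the 9 tested members (Junb, Ier2 and Egr1) were called higher at 5 weeks, where 25.4% of all tested genes were called. At 25 weeks 2 of 9 were called higher, where 4.70% of all tested genes were called. The median change of the 9 was 0.30 at 5 weeks and 0.42 at 25 weeks on the log2(TPM + 1) scale, Col6a2-/- minus WT, against 0.15 and 0.08 over all tested genes. Because Egr1 could enter only through Col6a2-/- libraries, these counts and medians are descriptions. The genotypes overlapped for each of the 10 genes at both ages, whereas the 8 Col6a2-/- mice lay wholly above the 8 WT mice for 1.18% of tested genes at 5 weeks and 0.663% at 25 weeks.

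**Figure D1:**
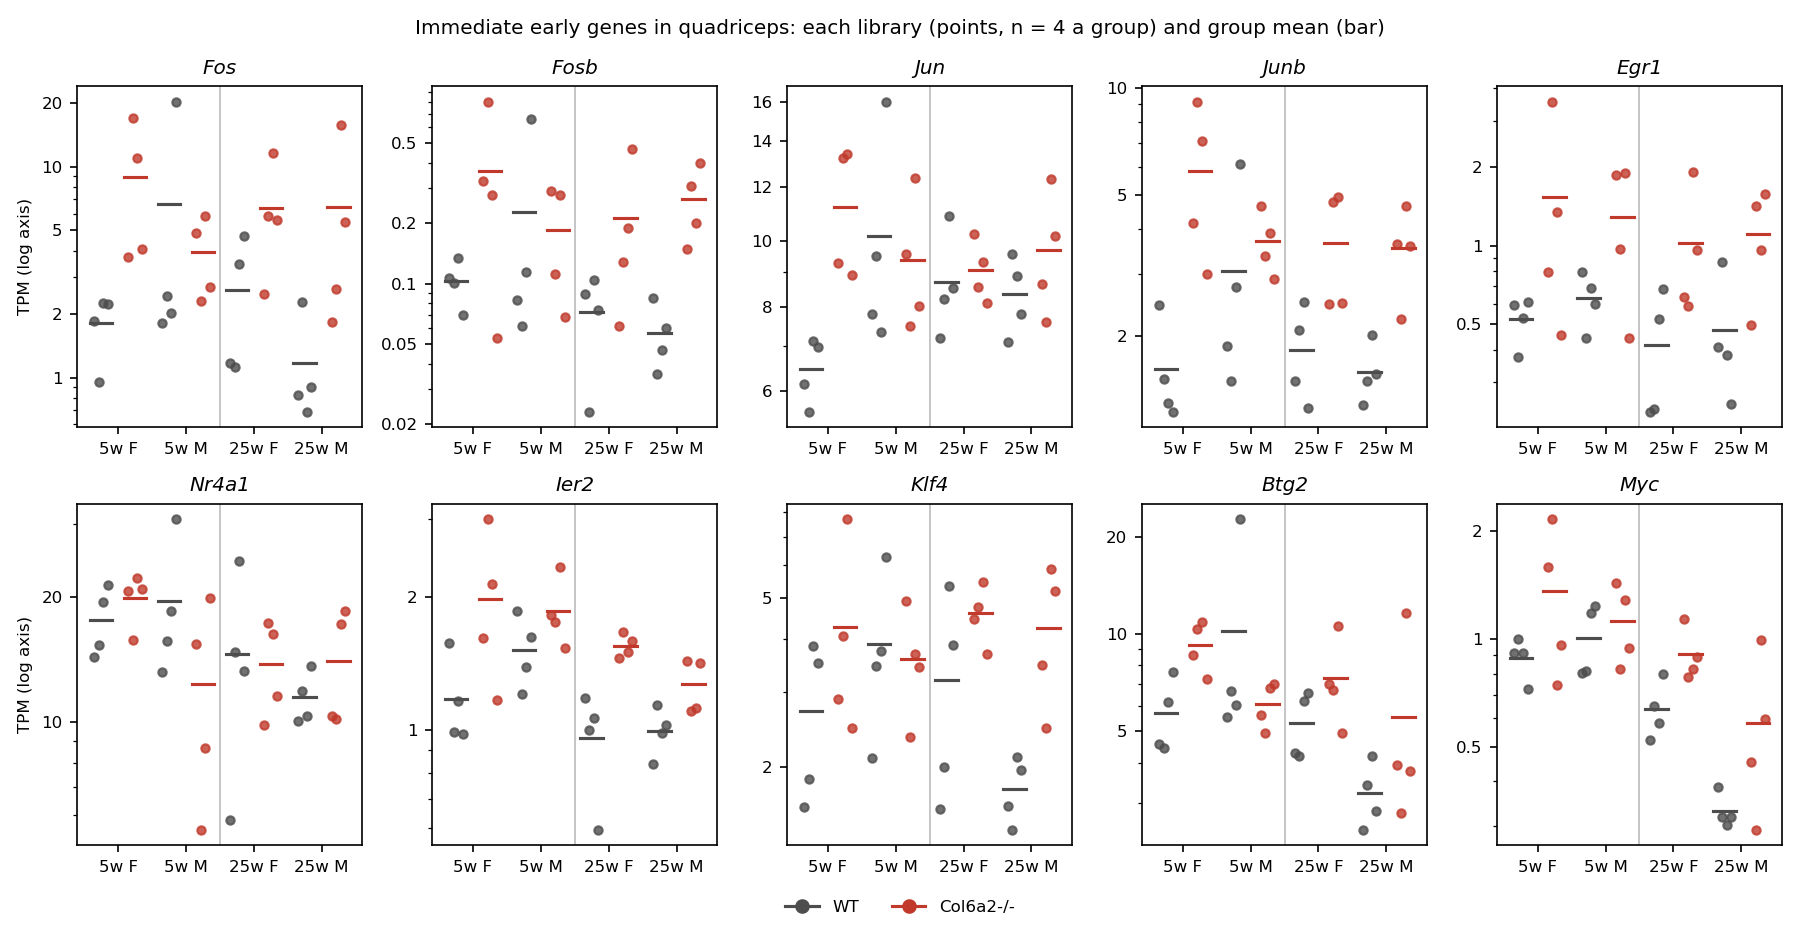
TPM of each of the 10 genes (log axis, a scale per panel) in every library, by age (w, weeks) and sex, with points for mice, bars for group means, grey for WT and red for Col6a2-/-. The group mean of Junb is higher in Col6a2-/- than in WT mice at each age and sex. The 5-week WT male library with 20.4 TPM of Fos is also the highest of its group for Jun, Junb, Nr4a1, Klf4 and Btg2.

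The set spans a wide range of levels per length. Nr4a1 was the most abundant, with a median of 15.4 TPM over the 32 libraries, followed by Jun at 8.59, Btg2 at 6.11, Klf4 at 3.497, Fos at 2.57, Junb at 2.49 and Ier2 at 1.41 TPM. Myc and Egr1 stood near the limit of the test with medians of 0.819 and 0.623 TPM, and Fosb was lowest with 0.110. None of the 10 was listed at 0 in any library. The mean read depth over the gene shows how firm these levels are. Its median was 65.8 for Jun and 18.4 for Fos, but 5.18 for Egr1, 4.45 for Myc and 0.460 for Fosb. When the 8 group means of each gene were put in order, 69 of the 70 neighbouring groups overlapped in their values, the exception being Btg2 in 25-week WT females above 25-week WT males. The highest group mean was that of 5-week Col6a2-/- females for 8 genes, Klf4 and Btg2 being the exceptions.

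Fos (ENSMUSG00000021250, GRCm38 chromosome 12, 85473890 to 85477273), the inducible partner of Jun in AP-1, had the largest residual SD of the 9 tested members on the log2(TPM + 1) scale. In 5-week WT females it was at 1.86, 0.949, 2.25 and 2.23 TPM, and in 5-week Col6a2-/- females at 3.74, 17.0, 11.05 and 4.07 TPM. These female groups did not overlap. The share of all tested genes that separate single-sex groups in this way was not computed, so such separations are descriptions. In 5-week WT males it was at 1.81, 2.44, 2.02 and 20.4 TPM, and in Col6a2-/- males at 4.88, 2.31, 5.82 and 2.68 TPM. A single WT library thus exceeded every other library of the series, while the other 3 lay at the low end. At 25 weeks WT females had 1.17, 1.13, 3.46 and 4.71 TPM and Col6a2-/- females 2.49, 5.81, 11.6 and 5.57 TPM. The 25-week WT males had 0.828, 2.29, 0.688 and 0.903 TPM and Col6a2-/- males 1.84, 2.64, 15.7 and 5.45 TPM. At this age 5 of the 8 Col6a2-/- mice were above all 8 WT mice. The limma change was 0.77 (SE 0.392, adjusted p 0.148) at 5 weeks and 1.24 (SE 0.392, adjusted p 0.0637) at 25 weeks, both short of the threshold. With the 5-week WT male library 4 left out, the 5-week comparison gave 1.12 (limma, adjusted p 0.0210). The 25-week value kept its size without that library but was then called, as it was without the 5-week Col6a2-/- female library 2 or 4 or the 25-week Col6a2-/- male library 2, with a lowest adjusted p of 0.0275. An exact permutation test of genotype within sex (two-sided, 4900 splits, smallest possible p 0.000408) gave p = 0.00653 at 25 weeks and p = 0.148 at 5 weeks, unadjusted, among 20 such tests of the set. Of the other members at 25 weeks, the same exact permutation test gave p = 0.00122 for Junb and for Ier2, 0.00204 for Fosb, 0.00490 for Egr1, 0.00571 for Myc and 0.00612 for Klf4, and for Jun, Nr4a1 and Btg2 from 0.0649 to 0.595. At 5 weeks the lowest were 0.0118 for Junb, 0.0208 for Ier2 and 0.0220 for Egr1, and the others ran from 0.120 to 0.805.

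Fosb (ENSMUSG00000003545, chromosome 7, 19302696 to 19310051), a close relative of Fos with the same dimer partners, stayed under 1 TPM. At 5 weeks the lowest, median and highest WT levels were 0.0615, 0.104 and 0.658 TPM, and those of Col6a2-/- mice were 0.0540, 0.277 and 0.808 TPM. At 25 weeks they were 0.0231, 0.0672 and 0.105 TPM in WT and 0.0616, 0.195 and 0.467 TPM in Col6a2-/- mice. So at 25 weeks 7 of 8 Col6a2-/- mice lay above every WT mouse, and the remaining one within the WT range. The exact permutation p was 0.00204 at 25 weeks and 0.331 at 5 weeks, unadjusted. With no filter on low TPM, limma gave changes of 0.13 and 0.21 with adjusted p of 0.419 at 5 weeks and 0.338 at 25 weeks, on a scale that compresses such low values.

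Jun (ENSMUSG00000052684, chromosome 4, 95049034 to 95052222), the main partner of the Fos proteins, was steadier. In 5-week females it was at 6.16, 5.601, 7.13 and 6.97 TPM in WT and at 9.28, 13.2, 13.4 and 8.91 TPM in Col6a2-/- mice. These groups did not overlap, again without a share over all tested genes. In 5-week males the levels were 7.80, 9.48, 7.33 and 16.01 TPM in WT and 9.55, 7.49, 12.4 and 8.00 TPM in Col6a2-/- mice, which overlapped throughout. The change in 5-week females was 0.69 (SE 0.183, limma adjusted p 0.0150) and that over both sexes at 5 weeks 0.31 (SE 0.130, adjusted p 0.0757). Without the WT male library 4 the latter was 0.42 (adjusted p 0.0101), and it was also called without Col6a2-/- female library 4. The call in 5-week females was lost without Col6a2-/- female library 2, with an adjusted p of 0.0839. At 25 weeks WT mice ranged from 7.10 to 10.9 TPM with a median of 8.36, and Col6a2-/- mice from 7.58 to 12.3 TPM with a median of 8.97. That difference of 0.12 (SE 0.130, adjusted p 0.659) was within the spread, and was 0.06 without Col6a2-/- male 3.

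Junb (ENSMUSG00000052837, chromosome 8, 84974484 to 84978718), an AP-1 subunit that also restrains Jun and is known to maintain muscle mass, gave the most stable difference. In 5-week females it was at 2.45, 1.52, 1.29 and 1.23 TPM in WT and at 4.17, 9.16, 7.09 and 2.996 TPM in Col6a2-/- mice. The 5-week WT males had 1.87, 1.49, 2.75 and 6.10 TPM and the Col6a2-/- males 4.65, 3.36, 3.89 and 2.89 TPM. Apart from the WT male library 4, every 5-week Col6a2-/- library lay above every WT library. At 25 weeks WT females had 1.498, 2.09, 2.49 and 1.25 TPM and Col6a2-/- females 2.46, 4.79, 4.92 and 2.49 TPM. The 25-week WT males had 1.28, 1.49, 2.01 and 1.57 TPM and the Col6a2-/- males 3.65, 2.24, 4.66 and 3.59 TPM. The males did not overlap, also given without a share over all tested genes. The mean over 8 mice was 2.34 ± 1.62 TPM in WT and 4.78 ± 2.22 TPM in Col6a2-/- mice at 5 weeks, and 1.71 ± 0.439 against 3.60 ± 1.11 TPM at 25 weeks (SD, n = 8). The ratios of these means were 2.04 and 2.10. The limma change was 0.82 (SE 0.193, adjusted p 0.00287) at 5 weeks and 0.74 (SE 0.193, adjusted p 0.0241) at 25 weeks. These lie 0.67 and 0.66 above the medians of all tested genes. The 5-week call was kept in all 32 fits that left out 1 library, with changes of 0.71 to 0.97. The 25-week call was kept in 28 and lost without WT female 4, Col6a2-/- female 3, or Col6a2-/- male 1 or 3 of that age, with adjusted p up to 0.0630. Its change over all 32 fits ran from 0.67 to 0.82. With a pseudocount of 5 or no filter on low TPM, the 25-week adjusted p was 0.0660 or 0.0783.

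Egr1 (ENSMUSG00000038418, chromosome 18), a zinc finger factor of growth and matrix gene control, was low in every WT group. The lowest, median and highest WT levels were 0.375, 0.596 and 0.791 TPM at 5 weeks and 0.232, 0.395 and 0.867 TPM at 25 weeks. Col6a2-/- mice had 0.442, 1.16 and 3.56 TPM at 5 weeks and 0.498, 0.963 and 1.92 TPM at 25 weeks. In all, 6 of 8 Col6a2-/- mice at 5 weeks and 5 of 8 at 25 weeks exceeded every WT mouse of their age. The ratio of means was 2.45 at 5 weeks and 2.39 at 25 weeks. The limma change was 0.52 (SE 0.179, adjusted p 0.0350) at 5 weeks and 0.49 (SE 0.179, adjusted p 0.114) at 25 weeks. These p-values come from a gene that passed the filter only where it was high, so they are given as a description. In the limma fit with no filter on low TPM the adjusted p was 0.0771 at 5 weeks and 0.248 at 25 weeks, and neither was called. The 5-week call was lost when WT female 2 or 3, WT male 2 or 4, Col6a2-/- female 2, or Col6a2-/- male 1 or 3 of that age was left out. The smallest of these changes was 0.35, without Col6a2-/- female 2, which holds the 3.56 TPM, and its adjusted p was 0.111. The 25-week difference was called only without that same 5-week library, among the fits that left out 1 library, with an adjusted p of 0.0371.

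Ier2 (ENSMUSG00000053560, chromosome 8, 84661331 to 84662852) differed by a smaller ratio but with little spread. At 5 weeks the lowest, median and highest levels were 0.978, 1.30 and 1.86 TPM in WT and 1.17, 1.79 and 2.99 TPM in Col6a2-/- mice. At 25 weeks they were 0.596, 1.01 and 1.18 TPM in WT and 1.10, 1.44 and 1.66 TPM in Col6a2-/- mice, 6 of which lay above every WT mouse. The ratios of means were 1.42 and 1.44. The limma change of 0.30 at 5 weeks was called (SE 0.0954, adjusted p 0.0206), and that of 0.29 at 25 weeks was not (SE 0.0954, adjusted p 0.0812). The 5-week call was lost without Col6a2-/- female 2 or Col6a2-/- male 3, with adjusted p up to 0.0618. Of 11 other settings 8 called it, the exceptions being median-of-ratios scaling, quantile normalization and each age fitted alone. Over these settings the 5-week change was as low as 0.12 and the limma adjusted p as high as 0.240. Relative to the median of all tested genes, the changes of 0.30 and 0.29 were 0.16 and 0.20. The 25-week difference was called without 5-week Col6a2-/- female 2 or 4, with a lowest adjusted p of 0.0290.

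Klf4 (ENSMUSG00000003032, chromosome 4, 55527143 to 55532466), a zinc finger factor of vessels, macrophages and muscle differentiation, differed at 25 weeks. The lowest, median and highest levels at that age were 1.42, 1.98 and 5.35 TPM in WT and 2.47, 4.63 and 5.88 TPM in Col6a2-/- mice. All 8 Col6a2-/- mice were above the WT mean of their sex, although WT female 3 with 5.35 TPM lay among them. The change was 0.69 (SE 0.205, limma adjusted p 0.0485), close to the threshold. Among the 32 fits that left out 1 library the call was kept in 11, those without WT female 1 or 3, WT male 1 or 4, Col6a2-/- female 2, 3 or 4 or Col6a2-/- male 1 or 2 of 5 weeks, and those without WT female 3 or Col6a2-/- male 2 of 25 weeks. It was lost in the remaining 21. Of 12 other settings, 4 called it: a pseudocount of 0.1, sample quality weights, the replicate block and each age fitted alone. Over all 32 the change ran from 0.59 to 0.80 and the adjusted p from 0.0232 to 0.107. At 5 weeks the levels were 1.61 to 6.28 TPM in WT and 2.34 to 7.69 TPM in Col6a2-/- mice, with a change of 0.21 (SE 0.205, adjusted p 0.468), which was 0.07 without Col6a2-/- female 3 and 0.31 without WT male 4.

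Nr4a1 (ENSMUSG00000023034, chromosome 15, 101254269 to 101274795), a nuclear receptor linked to glucose use in contracting muscle, was not called for genotype at either age. At 5 weeks its lowest, median and highest levels were 13.2, 17.1 and 30.7 TPM in WT and 5.53, 17.8 and 22.3 TPM in Col6a2-/- mice. It was the tested member with a negative 5-week change, of -0.26 (SE 0.226, limma adjusted p 0.408), and at 25 weeks the change was 0.13 (SE 0.226, adjusted p 0.790). The first was -0.11 without 5-week Col6a2-/- male 2. The second turned to -0.04 without 25-week WT female 1 and was 0.28 without WT female 3. Btg2 (ENSMUSG00000020423, chromosome 1, 134075170 to 134079120) had a WT range of 4.44 to 22.6 TPM and a Col6a2-/- range of 4.96 to 10.9 TPM at 5 weeks. At 25 weeks it ranged from 2.48 to 6.57 TPM in WT and from 2.81 to 11.6 TPM in Col6a2-/- mice. Its changes of 0.09 (SE 0.223, adjusted p 0.778) and 0.42 (SE 0.223, adjusted p 0.300) were within the spread. The first was 0.002 without 5-week WT male 1 and 0.31 (limma adjusted p 0.231) without 5-week WT male 4. The second was 0.24 without 25-week Col6a2-/- male 3. Myc (ENSMUSG00000022346, chromosome 15, 61985391 to 61990374) had medians of 0.913 TPM in WT and 1.12 TPM in Col6a2-/- mice at 5 weeks, and of 0.454 and 0.804 TPM at 25 weeks. Its genotype changes were 0.18 (SE 0.0997, adjusted p 0.179) and 0.23 (SE 0.0997, adjusted p 0.205), the first being 0.11 without 5-week Col6a2-/- female 2.

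**Figure D2:**
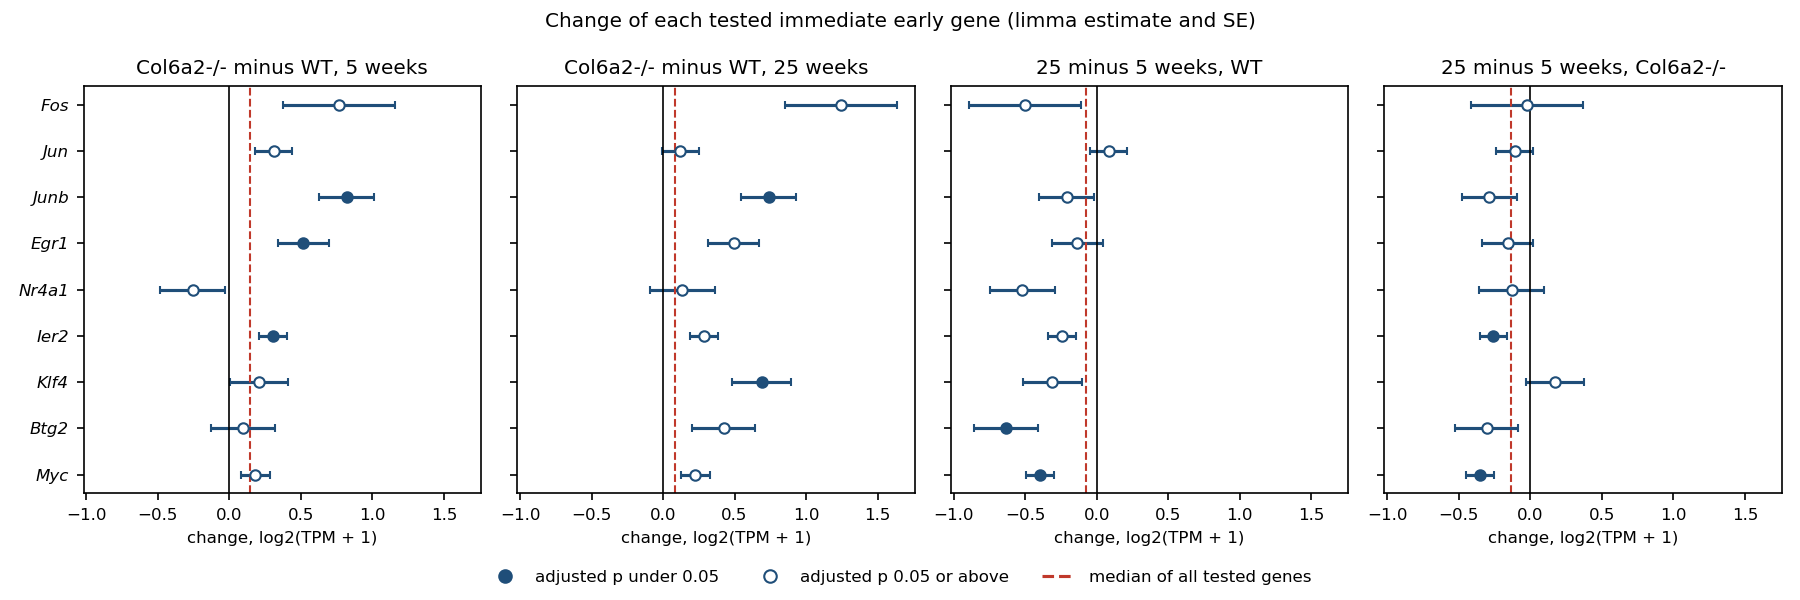
Change on the log2(TPM + 1) scale with its SE for the 9 tested genes in 4 comparisons, from the limma model of all 32 libraries. Filled points have an adjusted p under 0.05, and the dashed line is the median of all tested genes, which lay at 0.15 in the 5-week genotype comparison and at -0.14 for age in Col6a2-/- mice.

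Within single sexes, calls were made among 5-week females. Of the 9 tested members, 3 were called higher in 5-week females, Junb with 1.31 (SE 0.273, limma adjusted p 0.00237), Jun with 0.69 and Ier2 with 0.42 (SE 0.135, adjusted p 0.0373), where 12.9% of all tested genes were called. The value for Fos, 1.62 (SE 0.554, adjusted p 0.0516), missed the threshold. It was called without 5-week WT male 4 or Col6a2-/- female 4, or without 25-week Col6a2-/- female 1 or male 1 or 3, and Egr1 without 5-week Col6a2-/- female 4, with lowest adjusted p of 0.0194 and 0.0176. Without Col6a2-/- female 2 the Egr1 change in 5-week females went from 0.59 to 0.27 (adjusted p 0.584). The Ier2 call was lost without any of WT females 2, 3 and 4 or Col6a2-/- females 1, 2 and 3, with adjusted p up to 0.240, and its change was 0.27 without Col6a2-/- female 2. In 5-week males 0 members were called, with 1 at an unadjusted limma p under 0.05 (Nr4a1, with a change of -0.69), where 5.03% of all tested genes were called. That of Nr4a1 was -0.39 without Col6a2-/- male 2 and -0.95 without Col6a2-/- male 4. Junb had a change of 0.32 there (SE 0.273, limma adjusted p 0.536), which became 0.63 (adjusted p 0.208) without WT male 4 and 0.13 (adjusted p 0.853) without WT male 2. The change of Fos in these males was -0.09, and 0.61 (limma adjusted p 0.604) without the WT library 4. At 25 weeks 0 members were called in females (2 at an unadjusted limma p under 0.05, Junb and Ier2), where 0.00780% of tested genes were called. In 25-week males 0 were called (3 at an unadjusted limma p under 0.05, Fos, Junb and Klf4), where 3.03% were called. Klf4 was called there without 25-week Col6a2-/- male 2 (adjusted p 0.0428). The test of the difference between sexes, over both ages, called 0 of the 9 and had 0 at an unadjusted limma p under 0.05, where 0.0156% of tested genes were called. All 9 estimates, male minus female change averaged over the ages, were negative, from -0.63 for Fos to -0.07 for Klf4. At 5 weeks the change was lower in males for all 9 members, for Nr4a1 -0.69 against 0.18 in females. At 25 weeks it was higher in males for 8 of 9, Ier2 being the exception, with 1.46 against 1.02 for Fos and 0.88 against 0.50 for Klf4. That order rested in part on 1 library, since without 25-week Col6a2-/- male 3 the male changes of Fos, Junb, Btg2 and Myc were 0.95, 0.67, 0.10 and 0.12, below the female ones of 1.02, 0.69, 0.38 and 0.22. The Klf4 change in 25-week females was 0.30 without WT female 1 and 0.73 without WT female 3. This order of the sexes was not tested separately by age. Without the 5-week WT male library 4 the estimates were -0.28 for Fos, -0.21 for Jun and -0.29 for Junb, against -0.63, -0.32 and -0.45 with it. The signs of Egr1 and Klf4 turned in single fits that left out 1 library. The test of the difference between ages likewise called 0 of the 9 members, with 0 at an unadjusted limma p under 0.05, where 0.492% of genes were called. A higher level in Col6a2-/- mice at one age is therefore not shown to differ from the other age. Between the sexes over all groups 0 members were called, with 1 at an unadjusted limma p under 0.05 (Myc, with a change of -0.16), where 3.05% of tested genes were called.

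The scale of the tables matters for these counts. Of the 3253 genes called at 5 weeks, 2979 were higher in Col6a2-/- muscle and 274 lower. After rescaling by median-of-ratios factors, which moved the all-gene median from 0.15 to 0.0006, the split was 1623 higher and 1479 lower. With quantile normalization the majority turned, with 1413 higher and 1672 lower. Under median-of-ratios scaling, and under quantile normalization, Junb alone of the 9 members was called at each age. At 25 weeks the split went from 573 higher and 30 lower to 750 higher and 532 lower with median-of-ratios scaling. It was 483 higher and 365 lower with quantile normalization. The 9 members were all above 0 at 25 weeks under both scalings, as with the values as deposited, while at 5 weeks 8 were above 0 as deposited and 7 under either scaling.

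With age, Myc fell in both genotypes. Of the 8 libraries that brought it past the filter, 7 were from 5-week mice, so its age difference is tied to how it entered the test. With no filter on low TPM the limma adjusted p for age was 0.0131 in WT and 0.0152 in Col6a2-/- mice. WT mice ranged from 0.723 to 1.24 TPM at 5 weeks and from 0.303 to 0.801 TPM at 25 weeks, and in males and females alike all 8 older mice were below the mean of the younger ones. In Col6a2-/- mice it ranged from 0.744 to 2.16 TPM at 5 weeks and from 0.293 to 1.14 TPM at 25 weeks. The changes, 25 minus 5 weeks, were -0.40 (SE 0.0997, limma adjusted p 0.00530) in WT and -0.35 (SE 0.0997, adjusted p 0.00755) in Col6a2-/- mice, both called in all 32 fits that left out 1 library. With quantile normalization the value in Col6a2-/- mice was -0.18 (adjusted p 0.102). Relative to the medians of all tested genes, -0.08 and -0.14, the changes were -0.32 and -0.22. In WT mice Btg2 fell as well, by 0.64 (SE 0.223, adjusted p 0.0425). That value was 0.42 lower at 25 weeks without the 5-week WT male library 4 (adjusted p 0.116), and the call was also lost without 5-week WT female 3 or 4, 25-week WT female 1 or 2, or 25-week WT male 1, 2 or 4. In Col6a2-/- mice Ier2 fell by 0.26 (SE 0.0954, adjusted p 0.0362), from 1.92 ± 0.563 to 1.41 ± 0.201 TPM (SD, n = 8). With median-of-ratios scaling its change was -0.14 (limma adjusted p 0.154), and with quantile normalization -0.08 (limma adjusted p 0.409). The Ier2 call was lost without 5-week Col6a2-/- female 2 or 3 or male 1 or 3, or 25-week female 1 or 3 or male 2 or 3, with adjusted p up to 0.111. Thus 2 of 9 tested members were called lower with age in WT, where 19.8% of tested genes were called, and 2 of 9 in Col6a2-/- mice, where 34.2% were called. In WT, Nr4a1 was also called without 25-week WT female 3 (adjusted p 0.0344) and Ier2 without 5-week Col6a2-/- female 2 or 4 (lowest adjusted p 0.0303). Of all genes called with age, 573 were higher and 1963 lower in WT, and 694 higher and 3695 lower in Col6a2-/- mice. Median-of-ratios scaling turned these splits into 1710 and 1953, and 2104 and 2319. Under quantile normalization the rising genes were the majority, 1777 against 1680 for WT and 2419 against 2128 for the knockout. Rescaling without mitochondrial and Rn7s genes gave 1133 rising against 1098 falling for WT, but 816 against 2579 for the knockout. The 25-week mice differ from the 5-week mice in every library, so age and any difference in collection day cannot be told apart.

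Mice of one group differed in most of these genes more than in the median gene. The residual SD around the group mean on the log2(TPM + 1) scale was 0.85 for Fos, higher than in 99.2% of tested genes, against a median of 0.20. It was 0.49 for Nr4a1, 0.48 for Btg2, 0.44 for Klf4, 0.41 for Junb and 0.38 for Egr1, each higher than in 92.7% to 96.7% of tested genes. Jun had 0.27, and Myc and Ier2 had 0.20 and 0.19, about the median. In TPM, the highest mouse of a group exceeded the lowest by up to 11.3 times for Fos, 15.0 times for Fosb and 7.83 times for Egr1, but by at most 2.19 times for Jun and 2.56 times for Ier2. The Egr1 value rests on the 5-week Col6a2-/- female library 2, at 3.56 TPM. The medians over the 8 groups were 4.37, 4.37 and 3.21 times for Fos, Fosb and Egr1, and 1.51 and 1.53 times for Jun and Ier2. With a pseudocount of 0.1 the residual SD of Fos was 1.04 and that of Egr1 0.71, and Ier2 and Myc, with 0.30 and 0.38, then lay above 63.2% and 78.7% of tested genes.

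The 5-week WT male library 4 shows how wide this spread was. It held 20.4 TPM of Fos, 0.658 of Fosb, 16.01 of Jun, 6.10 of Junb, 30.7 of Nr4a1, 6.28 of Klf4, 22.6 of Btg2 and 1.24 of Myc, each the highest of its group. For Egr1 and Ier2, at 0.599 and 1.62 TPM, it was not the highest. Its level was the highest of the 4 for 7 of the 9 tested members and for 11.6% of all tested genes. Because the library was singled out by its levels of the members, their share is a description and not a test. Of 40 tested genes in a list of other immediate early and primary response genes it was highest for 23, and of 11 heat shock and handling stress genes for 9, Hspa1a at 8.21 TPM and Hspa1b at 7.96 TPM among them. It was highest for 0 of 12 macrophage markers, 1 of 12 endothelial markers, 2 of 12 fibroblast markers and 1 of 21 upstream factors. This library was not set apart by depth, with a coverage to FPKM ratio of 10.4 in a group that spanned 10.3 to 12.9.

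**Figure D3:**
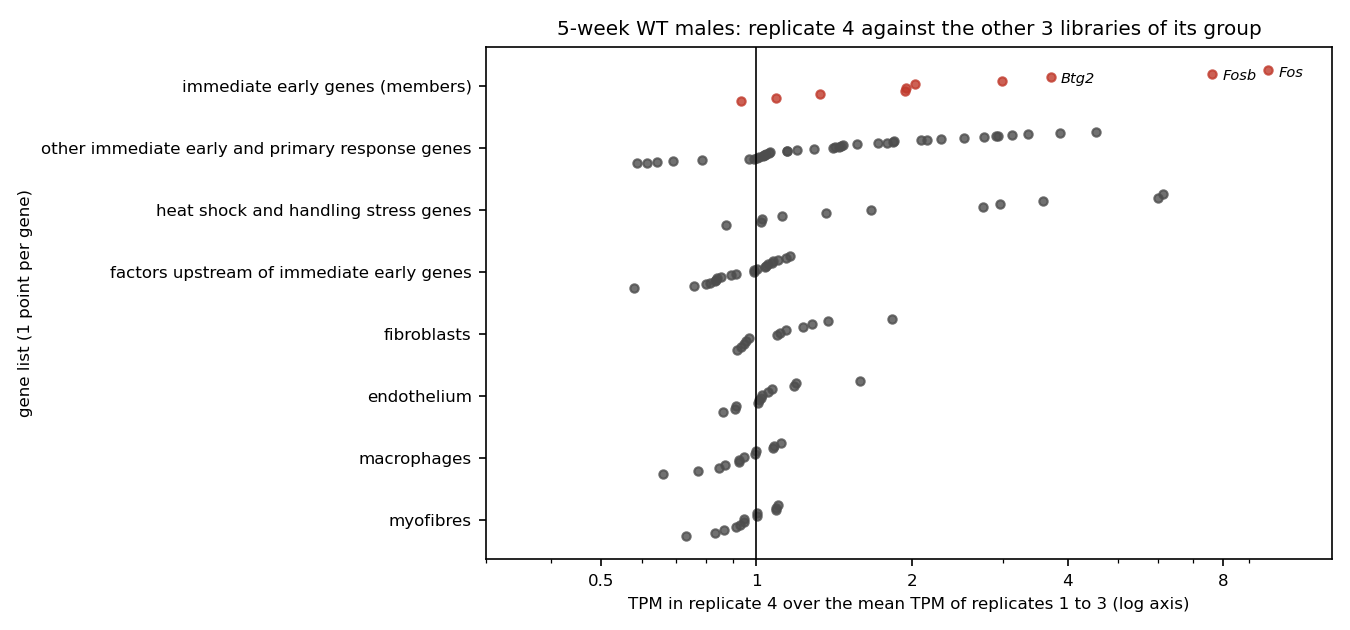
TPM of single genes in the 5-week WT male library 4 divided by the mean TPM of the other 3 libraries of its group (log axis), by gene list, 1 point per gene. Fos, Fosb and Btg2 are the members farthest to the right, several heat shock genes lie to the right as well, and macrophage and myofibre genes lie around 1.

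Across mice within groups, many members varied together. Of 36 pairs among the 9 tested members, 34 had a positive Pearson r of residuals over the 32 libraries, and 15 had an adjusted p under 0.05 by permutation of libraries within groups (100000 permutations, adjusted over the 36 pairs), all of them positive. The same 15 passed with Spearman's rho. The strongest were Fos with Btg2 (r = 0.82, rho = 0.68, permutation adjusted p 0.00144), Fos with Jun (r = 0.81, rho = 0.75, permutation adjusted p 0.000810) and Jun with Btg2 (r = 0.80, rho = 0.75, permutation adjusted p 0.000360). Leaving out the 2 libraries farthest from the median of the first gene gave r of 0.67, 0.70 and 0.73, and leaving out the WT male library 4, which was chosen after its values were seen, gave 0.75, 0.74 and 0.72. Klf4 joined them, with r of 0.74 to Jun, 0.69 to Btg2 and 0.68 to Fos. Nr4a1 passed with Klf4 (r = 0.68), Btg2 (r = 0.51) and Fos (r = 0.47, rho = 0.48, permutation adjusted p 0.0342). Ier2, Egr1 and Myc had fewer such pairs. Ier2 had r of 0.60 with Junb but 0.02 with Btg2, 0.05 with Klf4 and -0.20 with Nr4a1, and Myc had no pair past the threshold. Egr1 followed Fos with r = 0.55 (rho = 0.62, permutation adjusted p 0.00891), yet had r of 0.15 with Btg2 and -0.02 with Nr4a1. The median r over the 36 pairs was 0.42, with 0.51 within 5 weeks and 0.47 within 25 weeks. TPM values share a library total, and the median r over all pairs of tested genes was 0.321. With median-of-ratios scaling the all-pair median was -0.001, and that of the members was 0.39.

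**Figure D4:**
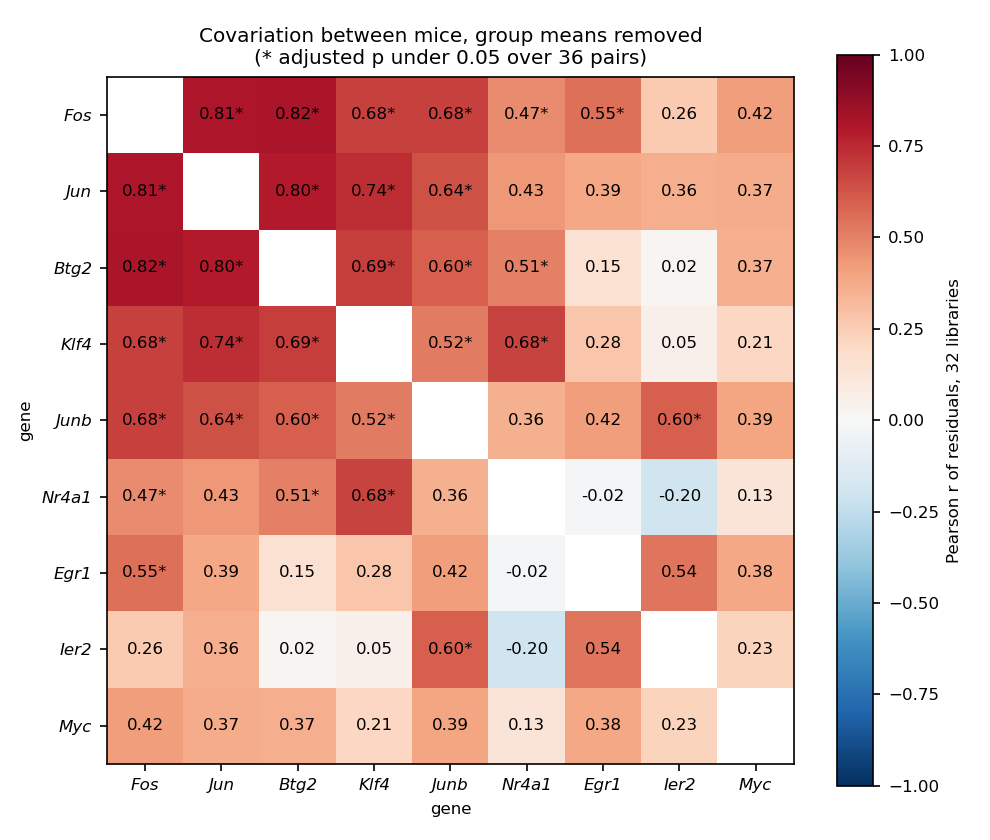
Pearson r between pairs of the 9 tested genes over 32 libraries after removing group means, on log2(TPM + 1), with red for positive and blue for negative r. Fos, Jun, Btg2, Klf4 and Junb form a block of r from 0.52 to 0.82, while Ier2 with Nr4a1 has the lowest r, -0.20.

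The genes outside the set with the most similar pattern were ranked by the Pearson correlation of their residuals, over 32 libraries, with the mean of the standardised residuals of the 9 members. The first 10 were Fosl2 (r = 0.85), Zbtb21 (0.82), Sik1 (0.80), Dnajb1 (0.79), Cdr2 (0.77), Gm7816 (0.76), Gm17024 (0.76), Klf10 (0.75), Slc20a1 (0.74) and Apold1 (0.74). Fosl2 encodes a further AP-1 subunit, Sik1 a kinase that is itself a CREB target, Dnajb1 a heat shock cochaperone and Klf10 a TGFβ-inducible zinc finger factor. For single members the nearest 3 were Dnajb1, Fosl2 and Sik1 for Fos, with r of 0.80, 0.77 and 0.75, and Atf3, Otud1 and Dnajb1 for Btg2, with r of 0.87, 0.82 and 0.75. Egr1 had Gm26945, Vamp2 and Nus1 nearest, with r of 0.77, 0.77 and 0.76. Myc had Armc10, Cd55 and Itm2c, with r of 0.76, 0.74 and 0.72. These are descriptions, since libraries, depth and scale are shared.

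Other immediate early and primary response genes were called at about the rate of genes at large at 5 weeks. In a list of 51 such genes, 40 were tested, and at 5 weeks 8 were called higher and 1 lower in Col6a2-/- muscle, 9 of 40 where 25.4% of all tested genes were called, with a median change of 0.25 against 0.15 over all tested genes. The 8 largest of those called were the kinase gene Sik1 (0.86, SE 0.161, limma adjusted p 0.000278), the cytokine signal inhibitor Socs3 (0.64), the kinase gene Plk2 (0.56), the mRNA decay factor genes Zfp36l1 (0.54) and Zfp36 (0.49), the matricellular gene Cyr61 (0.51) and Phlda1 (0.34), with Sgk1 (-0.41) lower. At 25 weeks 5 were called higher and 0 lower, Klf2 (0.77, adjusted p 0.0395), Socs3 (0.71), Sik1 (0.61), Zfp36 (0.46) and Maff (0.45), with a median of 0.27 against 0.08, 5 of 40 where 4.70% of all were called. Sik1, Socs3 and Zfp36 were thus called at both ages. With age 13 of the 40 were called lower and 1 higher in WT, where 19.8% of all were called, among them the matricellular gene Ctgf (-1.15), Rhob (-0.82), the AP-1 subunit gene Jund (-0.79) and the phosphatase gene Dusp6 (-0.62). In Col6a2-/- mice 15 were called lower with age and 1 higher, where 34.2% of all were called, among them Plk2 (-0.78), Hbegf (-0.77), Sik1 (-0.72) and Rhob (-0.71).

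Of 21 tested factors known to act upstream of these genes, 4 were called higher at 5 weeks and 0 lower, where 25.4% of all tested genes were called. They were the calcium-dependent kinase gene Camk2d (0.50, SE 0.119, limma adjusted p 0.00328), the Ets factor genes Elk3 (0.46) and Elk4 (0.38), and the ERK kinase gene Mapk3 (0.30). At 25 weeks 0 were called by limma, with 4 at an unadjusted p under 0.05. Their median changes of 0.06 and 0.08 compare with 0.15 and 0.08 over all tested genes. With age 4 were called lower in WT and 6 in Col6a2-/- mice, where 19.8% and 34.2% of all tested genes were called, with Crem (-0.55) and Camk2d (-0.64) having the largest changes in the respective genotype.

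Genes in several cell type lists and in the heat shock and handling stress list also differed by genotype. Of all tested genes, 25.4% were called at 5 weeks and 4.70% at 25 weeks. The lists hold no direct measure of handling. Of 11 heat shock and handling stress genes, 6 were called higher at 5 weeks, led by Cdkn1a (1.98, limma adjusted p 1.1e-07), a cell cycle inhibitor, and Gadd45a (1.65), a DNA damage response gene. At 25 weeks 0 of them were called by limma, with 7 at an unadjusted p under 0.05. The summed level of the list ran from 228 to 360.0 TPM in WT and from 319.9 to 557 TPM in Col6a2-/- mice at 5 weeks, and from 249.8 to 415 and 285 to 399 TPM at 25 weeks. Of 12 macrophage markers, 12 were called higher at 5 weeks and 9 at 25 weeks. Their summed level ran from 74.3 to 124 TPM in WT and from 112 to 391.5 TPM in Col6a2-/- mice at 5 weeks, and from 48.8 to 128 and 124 to 232 TPM at 25 weeks, none of them at 0. Fibroblast markers were called higher for 7 of 12 at each age, and endothelial markers for 6 of 12 at 5 weeks and 0 of 12 at 25 weeks (3 at an unadjusted limma p under 0.05). Satellite cell markers were called higher for 4 of 5 at 5 weeks and 1 of 5 at 25 weeks, and those of smooth muscle and pericytes for 2 of 8 and 0 of 8 (1 at an unadjusted limma p under 0.05). Myofibre markers were called lower for 5 of 12 at 5 weeks and 0 of 12 at 25 weeks (5 at an unadjusted limma p under 0.05). Their summed median at 5 weeks was 49392 TPM in WT and 40028 TPM in Col6a2-/- mice. Of 5 erythrocyte markers 0 were called by limma at either age, with 0 at an unadjusted p under 0.05. Of 3 tested neutrophil markers 0 were called, with 1 at an unadjusted limma p under 0.05 at each age. Neutrophil markers summed to at most 6.32 TPM, with Ly6g at 0 in all libraries. The part of any of these in the genotype differences of the members was not tested.

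Within groups, the members were also set against the mean level of these lists, a comparison added after the values were seen, with 36 relations of the 9 members to 4 lists. With the heat shock list, Btg2 (r = 0.78, rho = 0.60), Fos (r = 0.73, rho = 0.64), Junb (r = 0.70, rho = 0.60), Klf4 (r = 0.70, rho = 0.67) and Jun (r = 0.68, rho = 0.56) had permutation adjusted p from 0.00432 to 0.0259 over 32 libraries. Without the 2 libraries farthest from the median of the list, these r were 0.57, 0.54, 0.60, 0.65 and 0.51. For Egr1, Ier2 and Myc r was 0.17, 0.25 and 0.28, and for Nr4a1 it was 0.38 (rho = 0.43, permutation adjusted p 0.131). With the macrophage list no member passed, the lowest permutation adjusted p being 0.177, and r ran from -0.31 for Nr4a1 to 0.56 for Ier2 and 0.51 for Myc. Without the 2 farthest libraries the values for Ier2 and Myc were 0.16 and 0.29. Those of the other members were then negative, from -0.14 for Junb to -0.36 for Fos. Egr1 went from 0.27 to -0.32 and Junb from 0.26 to -0.14. With the endothelial list the highest r was that of Ier2, 0.59 (rho = 0.48, permutation adjusted p 0.0544), and 0.52 without the 2 farthest libraries. With the fibroblast list it was also that of Ier2, 0.50 (rho = 0.25, permutation adjusted p 0.210), and 0.10 without those 2.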

How the data were processed

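A TruSeq RNA kit and paired-end sequencing were used, per the labels' protocols. The submitters' processing notes name FastQC, MultiQC, Trimmomatic, HISAT2, SAMtools and StringTie, and GRCm38 (mm10), and the use of strand is not given in the sources used here. Each library has a deposited table of coverage (mean read depth, unscaled), FPKM and TPM per gene, computed by the authors, per the file headers. TPM have one fixed sum per library. Reads were not counted here.

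TPM were summed per gene ID (Junb has 2 rows in 26 libraries). Genes reaching 1 TPM in 4 or more libraries were fitted as log2(TPM + 1) with limma 3.58.1 in R 4.3.3 (8 group means over 32 libraries, eBayes with trend), in 11 two-sided comparisons with Benjamini-Hochberg adjustment over all 12817 genes. Such a scale understates changes of low genes. Exact permutation tests, correlations and plots used Python 3.11.15, numpy 2.4.6, pandas 2.3.3 and matplotlib 3.10.9, and the model was tested on simulated data. Sequences are from RefSeq, GRCm38.p6.

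The members and gene lists were chosen with earlier results of these data known. All 10 members are named; of the other lists, up to 8 called genes (other immediate early genes) or 4 (upstream and heat shock genes) by size of change; of similar genes, the first 10 to the set and the first 3 to Fos, Egr1, Myc and Btg2. Alternatives varied the pseudocount, filter, scaling, FPKM, library weights, eBayes, replicate block and age, and left out each library. Libraries are separate mice per the labels, which give no batch.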

Additional observations from a re-analysis of the deposited data

Results flagged for a closer look

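In 3 of 80 sets of 4 libraries (10 genes in 8 groups), the highest library was farther from the next than Dixon's 95% critical value for 4 samples allows, where chance alone would give about 1 in 20. The number flagged is no more than that rate would give. All 3 were the 5-week WT male library 4. The gap to the next library, divided by the range of the group on the log2(TPM + 1) scale, was 0.899 for Fos (20.4 TPM), 0.892 for Fosb (0.658 TPM) and 0.875 for Btg2 (22.6 TPM). The 3 genes share that library, so the gaps are not separate events.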

How the results depend on the processing

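Counts of called members over the 32 fits that left out 1 library ran from 1 to 4 for genotype at 5 weeks, 0 to 5 at 25 weeks, 1 to 5 in 5-week females, 0 to 1 in 25-week males, 1 to 3 for age in WT and 1 to 2 for age in Col6a2-/- mice, and were 0 throughout in 5-week males, 25-week females, genotype by age, genotype by sex, and sex. In the same fits 2207 to 4749 of all genes were called at 5 weeks, 270 to 983 at 25 weeks and 455 to 3865 in 5-week females. Against 3 members called for genotype at 5 weeks, median-of-ratios scaling, quantile normalization and each age fitted alone gave 1, a filter of 5 TPM gave 0, with 5 members left to test, and no filter gave 2, Egr1 being lost (adjusted p 0.0771). In 5-week females, against 3, the first 4 of these gave 1, no filter and rescaling without mitochondrial and Rn7s genes gave 2, and a pseudocount of 0.1 and the replicate block gave 4. At 25 weeks, against 2, a pseudocount of 5, no filter and a filter of 5 TPM gave 0, and both scalings, rescaling without mitochondrial and Rn7s genes, FPKM and robust eBayes gave 1. A pseudocount of 0.1 gave 5 there, each age alone 4, and sample quality weights 7, while all genes called went from 603 to 859, 1087 (of 11779 tested) and 1967. In 25-week males, against 0, quality weights gave 4, each age alone 2 and the replicate block 1. For age in WT, against 2, quality weights gave 4, a pseudocount of 0.1 gave 3, and a pseudocount of 5, both filters, the 3 rescalings and FPKM gave 1. For age in Col6a2-/- mice, against 2, a pseudocount of 0.1, no filter, median-of-ratios, rescaling without mitochondrial and Rn7s genes, and FPKM gave 1, and quantile normalization and the 5 TPM filter gave 0. The cause of these shifts was not tested. Replicate numbers did not pair the samples (median r 0.0322 between same-numbered libraries, 35 of 112 pairs above 0.1). With the replicate block, 3 members were called at each age, Fos being added at 25 weeks (adjusted p 0.0461), and 4 in 5-week females. No called change of a member turned its sign under any setting run. The splits of all called genes at 5 weeks and with age did turn under quantile normalization. The age split for WT also turned after rescaling without mitochondrial and Rn7s genes. Low depth limits Fosb, Egr1 and Myc most.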
